A study of Homo sapiens with 16 samples.

Results

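The crossed experiment asked how the response of a bile duct cancer cell line to the transcription factor PRH differs when the cells also carry a short hairpin RNA (shRNA) against the receptor NOTCH3. It used 8 of the 16 libraries of the study, 2 in each of 4 groups: NOTCH3 shRNA with PRH virus, NOTCH3 shRNA with empty virus, control shRNA with PRH virus and control shRNA with empty virus. All came from CCLP1, an established human line of intrahepatic cholangiocarcinoma (a tumour of bile ducts within the liver), infected with an adenovirus that carries myc-tagged PRH or with an empty adenovirus. The control shRNA is non-targeting, so every group carries an shRNA and a virus, and the labels separate the groups by shRNA target and virus alone. The series' design text gives the 2 libraries of a group as separate infections of the same shRNA line, so p-values measure the spread between infections and not between lines. Neither it nor the labels say whether each shRNA line is a single clone or a pool. For each of 15836 genes the measure was the interaction: the change with the PRH virus in the cells labelled NOTCH3 shRNA, minus the same change in the control shRNA cells, on the log2(normalised count + 1) scale. A negative interaction is a rise that is smaller, or a fall that is larger, in the cells labelled NOTCH3 shRNA. These are called N3-labelled cells here, the others control cells, and the libraries of a group A and B, which are names only.

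PRH, encoded by HHEX, is a homeodomain transcription factor of endoderm and blood cells that needs its level held in bounds: it mostly represses genes, partly through Groucho/TLE co-repressors, and can also activate them. Notch receptors are cleaved after binding ligands of the Jagged and Delta families on a neighbouring cell, and the released part enters the nucleus and turns on targets such as the HES and HEY repressors. In bile ducts, Jagged and Notch signalling guides the choice between hepatocyte and cholangiocyte fate, and NOTCH3 is raised in many cholangiocarcinomas.

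HHEX followed the virus in both lines. It had 71910.5 and 46576 with the PRH virus and 209 and 187 with the empty virus in N3-labelled cells, in normalised counts, against 228979.8 and 330421 with the PRH virus and 613 and 715 with the empty virus in control cells. The response was 8.19 (log2, SE 0.22) in N3-labelled cells and 8.70 (SE 0.22) in control cells. The interaction was -0.51 (SE 0.30), with limma's adjusted p 0.366, so a different fold was not shown, but the groups did not overlap and both levels were lower in N3-labelled cells. Reads of the viral insert and of the cell's own gene cannot be told apart here.

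NOTCH3 itself went against a plain reading of the shRNA label. It had 761 and 1086 with the PRH virus and 655 and 1018 with the empty virus in N3-labelled cells, and 2295 and 2488 with the PRH virus and 711 and 838 with the empty virus in control cells. With the empty virus the lines overlapped, and the difference between them lay in the libraries with PRH virus. The response of NOTCH3 was 0.15 in N3-labelled cells (adjusted p 0.799) and 1.63 in control cells (adjusted p 0.0012). Its interaction was -1.47 (SE 0.34, adjusted p 0.0279). That call held when N3-labelled empty virus library A was left out, and the adjusted p was 0.0511 to 0.108 when any other library was.

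The 2 lines also stood apart with the empty virus alone. There 5826 genes (36.8%) were at least 2-fold apart between the lines, 3529 of them higher in N3-labelled cells. KRT19, a keratin of bile duct cells, had 52526 and 52517 with the PRH virus and 51369.8 and 63763 with the empty virus in N3-labelled cells, and 0.852 and 1.93 with the PRH virus and 11.3 and 55.4 with the empty virus in control cells. EPCAM, an epithelial adhesion protein, had 24682 and 23795 with the PRH virus and 34253 and 28044 with the empty virus in N3-labelled cells and 4.26 and 3.86 with the PRH virus and 14.3 and 28.3 with the empty virus in control cells. VIM, the mesenchymal filament vimentin, was lower in N3-labelled cells, at 182613 and 202995 with the PRH virus and 135644 and 172113 with the empty virus, than in control cells, at 352275 and 309202 with the PRH virus and 557347 and 532037 with the empty virus. The summed level of 17 cholangiocyte markers was 151546 to 171045 in the 4 N3-labelled libraries and 32999.5 to 41025 in the 4 control libraries, with 1 or 2 markers at 0 in both libraries of an N3-labelled group and 4 in each control group. Their part in the results below was not tested. The summed level of 15 fibroblast markers was 48051.5 to 60962.7 in N3-labelled libraries and 48684.4 to 135081.5 in control libraries, highest with the empty virus, and 2 to 5 of them were at 0 in both libraries of a group. That of 14 leukocyte markers was 1217.9 to 2532.1 in N3-labelled libraries and 4225.6 to 10973.7 in control libraries, with 5 or 6 at 0. Hepatocyte markers (17) summed to 1066.6 to 1412.6 in N3-labelled libraries and 130 to 302 in control libraries, and endothelial markers (12) to 595 to 832 in N3-labelled libraries and 56.0 to 131 in control libraries. Of the defining markers, CD3D was at 0 in all 8 libraries, ALB reached at most 91.7, PTPRC 24.1, PECAM1 16.4 and DCN 8.2. Others were present in all 8, such as the fibroblast marker COL1A1 at 153 to 858 and the leukocyte marker CD14 at 17.9 to 89.5. The NOTCH3 shRNA and any other difference between these 2 lines cannot be told apart, and this touches every result below. In bulk RNA, fewer cells of a type and less RNA per cell cannot be told apart either. Libraries held 47257779 to 69899040 reads in genes and detected 15388 to 17169 genes, and the median gap between the 2 libraries of a group was 0.156 to 0.241 on the log2 scale.

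**Figure D1:**
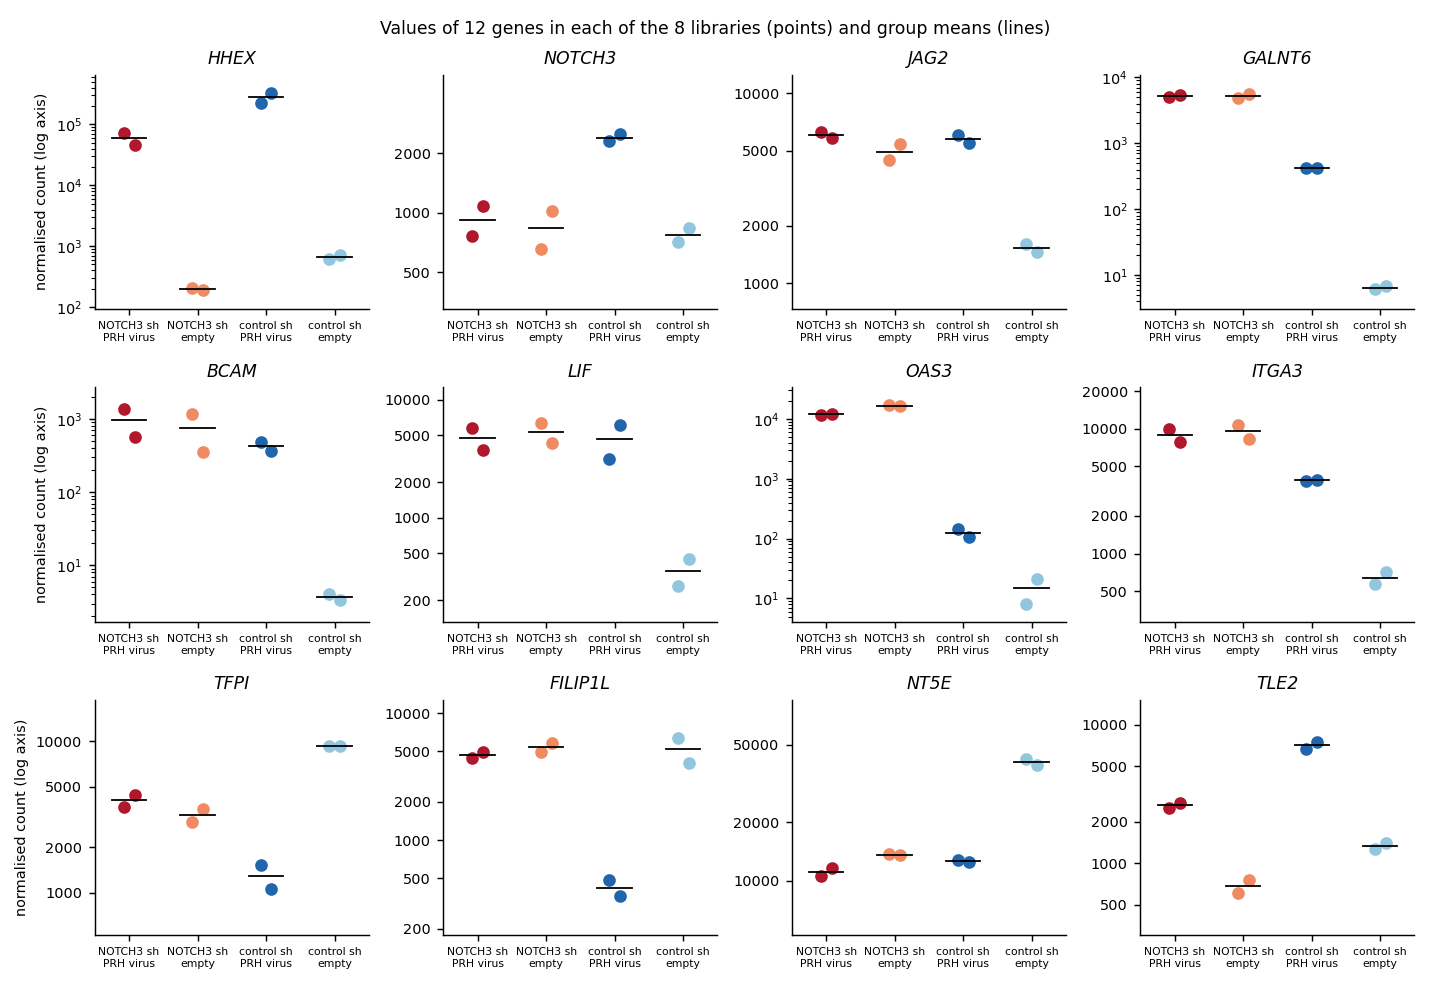
Normalised counts of 12 genes (log axis) in each library; points are the 2 libraries of a group and lines their mean, with N3-labelled cells left of control cells and PRH virus left of empty virus. HHEX and TLE2 are higher with the PRH virus in both lines. The other 10 genes move with the virus in control cells and change less in N3-labelled cells, where BCAM libraries spread from 360.3 to 1359.

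With the PRH virus, HHEX had a mean of 59243.3 normalised counts in N3-labelled cells and 279700.2 in control cells. The part of this difference in the results below was not tested. Far fewer genes were called with the PRH virus in N3-labelled cells. There 350 genes were called at an adjusted p under 0.05 (2.21% of those tested), 301 higher (1.9%) and 49 lower (0.309%), or 370 higher and 23 lower when the libraries were rescaled to equal totals. In control cells 4282 were called (27%), 2412 higher (15.2%) and 1870 lower (11.8%), a split of 56.3% higher that became 70% with that rescaling. The interaction was called for 1329 genes (8.39%): 551 higher (3.48%) and 778 lower (4.91%). The interaction was at least 2-fold for 778 of the 1329. Differences of all 1329 did not overlap between the lines, against 38.3% of all tested genes. The call held in each of 8 fits that left out 1 library for 439 genes. Those fits called 500 to 1187 genes: 743 and 500 without library A and B of N3-labelled cells with PRH virus, 747 without library B of control cells with PRH virus, and 716 without library A of control cells with empty virus. Calls in N3-labelled cells fell to 1 without either of their PRH virus libraries and to 112 to 178 in 5 other fits, and numbered 405 without their empty virus library B. Calls in control cells fell to 2492 without PRH virus library B, and to 2291 and 2656 without empty virus library A and B.

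Most of the difference was a response present in control cells and absent or smaller in N3-labelled cells. Of the 2412 genes that rose in control cells, the median change was 1.02 on the log2 scale there and 0.15 in N3-labelled cells, and 216 (8.96%) were also called in N3-labelled cells. For the 1870 that fell, the medians were -0.59 in control cells and -0.13 in N3-labelled cells, and 26 (1.39%) were called in both. The sign still matched for 66% of the rises and 72.8% of the falls. Across the 15836 genes the 2 responses had a Pearson correlation of 0.30, and across the 4282 called in control cells 0.50. These describe genes of the same 8 libraries, which are not independent replicates. The 2412 and 1870 genes were chosen by their call in control cells, which favours a larger change there. Their medians and shares thus describe that choice as well and test nothing.

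By the 3 tests a gene was placed in a class. The class lost holds genes called in control cells, not called in N3-labelled cells, with a called interaction of opposite sign: 728 rises and 500 falls. For 1025 of these 1228 genes (83.5%) the 95% interval of the response in N3-labelled cells lay within 2-fold of no change. The response was reduced, called in both lines but smaller in N3-labelled cells, for 9 rises and 7 falls, and reversed for 6 rises and 8 falls. It was kept, called the same way in both lines with no called interaction, for 206 rises and 19 falls. For 117 kept genes the 95% interval of the interaction lay within 2-fold either way. It was gained in N3-labelled cells for 15 rises and 6 falls, and stronger there for 1. A further 2798 genes called in control cells alone (1462 rises and 1336 falls) and 73 called in N3-labelled cells alone had no called interaction and cannot be placed.

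Without either N3-labelled PRH virus library, the numbers of kept and gained genes fell further than that of lost ones. Kept and gained genes need a call in N3-labelled cells and lost genes need none. The definitions thus favour this contrast, and it tests nothing about the genes. Left-out fits gave 497 to 1060 genes as lost, reduced or reversed, against 1258 with all libraries. The low counts were 686 and 497 without N3-labelled PRH virus library A and B, 719 without control PRH virus library B and 694 without control empty virus library A. Kept genes numbered 1 without either N3-labelled PRH virus library, HHEX, and 68 to 252 in the other 6 fits, against 225. Gained or stronger genes numbered 0 without either of those 2 libraries and 5 to 59 in the other 6, against 22.

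**Figure D2:**
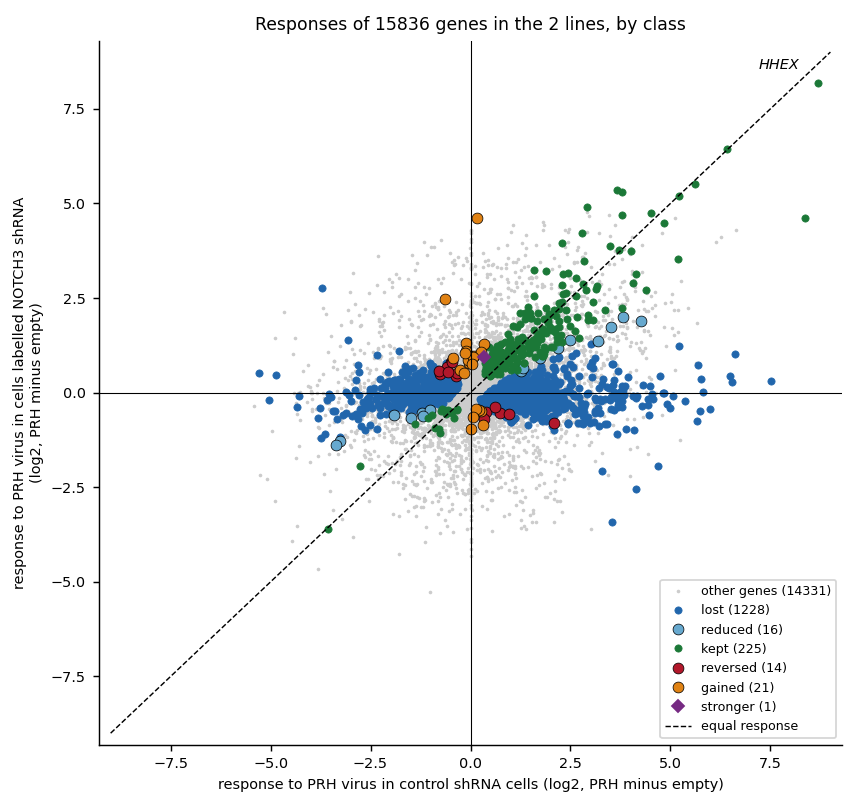
Change with the PRH virus of 15836 genes in control cells (x axis) and N3-labelled cells (y axis), both log2, PRH virus minus empty virus; colours give the class and the dashed line equal responses. The 1228 lost genes lie along the horizontal line at 0, while the 225 kept genes, HHEX among them, follow the dashed line.

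The level with empty virus differed between the classes. For 444 of the 728 lost rises (61%), N3-labelled cells with the empty virus were already at or above the level of control cells with PRH virus. Only 58 (7.97%) were at or below control cells with empty virus. Kept rises were the other way round: 1 of 206 (0.485%) was at or above, and 194 (94.2%) at or below. Among all 2412 genes that rose in control cells, the shares were 33.7% at or above and 35% at or below. Relative to control cells with empty virus, the median level of lost rises was 1.41 higher on the log2 scale in N3-labelled cells with PRH virus, 1.53 with empty virus, and 1.16 in control cells with PRH virus. Kept rises had medians of 0.14, -1.32 and 1.40 for the same 3 groups. Of the 500 lost falls, 179 (35.8%) were in N3-labelled cells with empty virus at or below control cells with PRH virus, and 96 (19.2%) at or above control cells with empty virus. Among all 1870 genes that fell in control cells, these shares were 25.6% and 36.8%. These levels come from the libraries that define the classes, so they describe the classes and test nothing.

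**Figure D3:**
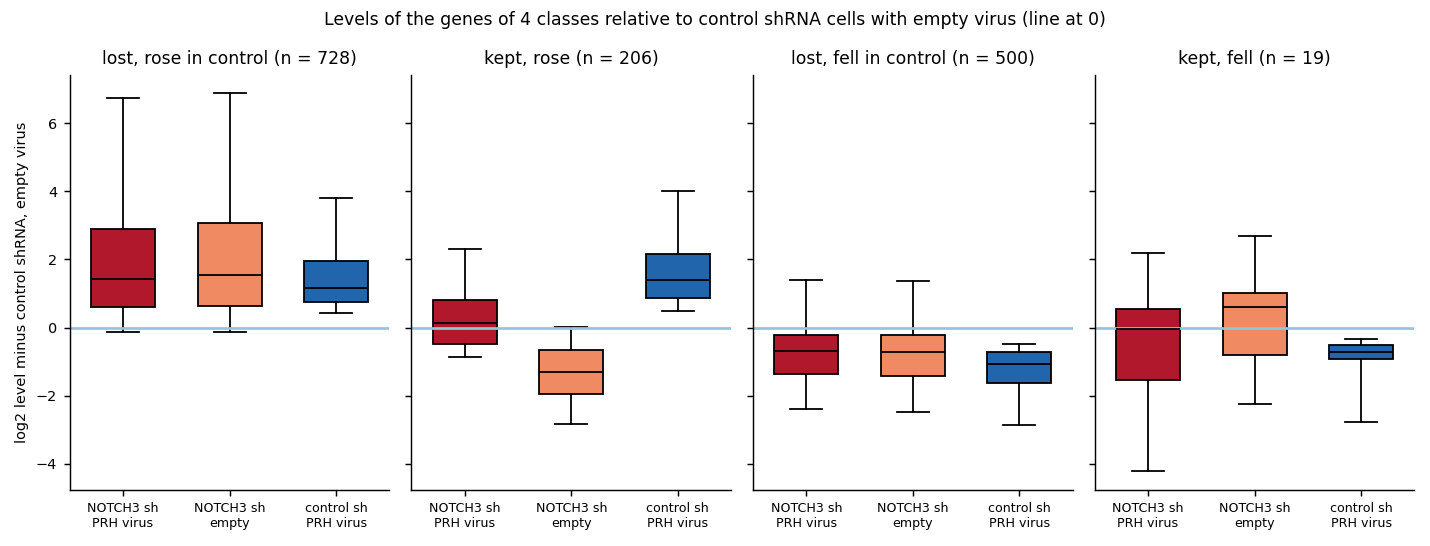
Level of the lost and kept genes in each group minus the mean of control cells with empty virus (line at 0), log2(normalised count + 1) scale; boxes are quartiles over genes, whiskers the 5th to 95th percentile, without outlying genes. Lost rises start high in N3-labelled cells (median 1.53 with the empty virus), whereas kept rises start low (median -1.32).

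Among the lost rises, 8 genes had the largest interaction with a call that held in all 8 left-out fits. GALNT6, which starts mucin-type O-glycosylation, had 5019 and 5434 with the PRH virus and 4893 and 5527 with the empty virus in N3-labelled cells. Control cells had 416 and 416 with the PRH virus and 6.15 and 6.79 with the empty virus, so 4 N3-labelled values lay far above every control value and did not move with the virus. Its interaction was -5.80 (SE 0.26, adjusted p 4.58e-05). BCAM, a laminin receptor of the immunoglobulin type, had 1359 and 574 with the PRH virus and 1173 and 360.3 with the empty virus in N3-labelled cells, and 490.5 and 361 with the PRH virus and 4.1 and 3.39 with the empty virus in control cells. The 2 N3-labelled groups overlapped, with the A library above the B library in both, while control groups were far apart (interaction -6.04, SE 0.82).

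Of these 8 genes, 3 were at 0 in both control libraries with empty virus, so their fold is a lower bound set by a floor of 3 reads over the 2 libraries. FUT1, a fucosyltransferase that makes the H antigen, had 55.4 and 45.4 in control cells with PRH virus, at least 31.2-fold higher than with empty virus. LAMA1, the laminin alpha 1 chain, was at least 26.0-fold higher, and P2RY2, a receptor for extracellular ATP and UTP, at least 33.7-fold higher. All 3 were present in N3-labelled cells with either virus: FUT1 had 737 and 632 with the PRH virus and 1219.7 and 1096 with the empty virus, and P2RY2 146 and 156 with the PRH virus and 124 and 109 with the empty virus. Also among the 8 were SP140L, a nuclear body protein (interaction -5.23), and INPP5J, an inositol polyphosphate 5-phosphatase (interaction -4.59). In N3-labelled cells the response of the 8 genes ran from -0.76 (FUT1) to 0.44 (BCAM), and none was called.

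The 8 largest lost falls behaved as a mirror image in control cells. TFPI, the inhibitor of tissue factor coagulation, had 3706 and 4450.0 with the PRH virus and 2943 and 3569 with the empty virus in N3-labelled cells. Control cells had 1518 and 1064 with the PRH virus and 9292 and 9302 with the empty virus, so that N3-labelled values lay between the 2 control groups (interaction 3.20, SE 0.24, adjusted p 0.000348). FILIP1L and FILIP1, related filamin-binding proteins, moved alike. FILIP1L had 4453 and 4945 with the PRH virus and 4941 and 5852 with the empty virus in N3-labelled cells and 485 and 360.3 with the PRH virus and 6312 and 4074 with the empty virus in control cells. FILIP1 had 1721 and 1520.5 with the PRH virus and 1879 and 2428 with the empty virus in N3-labelled cells and 93.7 and 71.5 with the PRH virus and 1160.2 and 1081 with the empty virus in control cells. In both genes the control cells with PRH virus stood alone, below every other library, with interactions of 3.40 and 3.36.

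ITGB8, an integrin subunit that pairs with alpha V, had 447 and 326 with the PRH virus and 314 and 423 with the empty virus in N3-labelled cells and 80.9 and 78.2 with the PRH virus and 661 and 543 with the empty virus in control cells, with the control PRH virus libraries again below every other library. PKHD1L1, a fibrocystin-like membrane protein, and FZD8, a Frizzled receptor for Wnt ligands, were low in N3-labelled cells throughout, at 51.3 to 93.2 for PKHD1L1 and 41 to 135 for FZD8. In control cells PKHD1L1 had 339.8 and 243 with the PRH virus and 2006 and 1981 with the empty virus, and FZD8 719 and 684 with the PRH virus and 2138 and 2719 with the empty virus. The protocadherin PCDH9 had 143 and 147 with the PRH virus and 81.7 and 36.5 with the empty virus in N3-labelled cells and 42.6 and 70.5 with the PRH virus and 456 and 476 with the empty virus in control cells, with opposite directions of which the one in control cells was called. SHROOM2, an actin-binding protein, was at 0 in control cells with PRH virus and at 27.7 and 36.2 with the empty virus, at least 23.5-fold lower, and at 1108 to 1468 in N3-labelled cells.

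A look at promoter sequence used the 300 bases around each RefSeq gene start, from 250 before to 50 after, on the GRCh38.p14 build. It searched the homeodomain core ATTAA on both strands (TTAAT), counting overlapping matches. At least 1 match was found in 14.4% of the 10625 tested genes with a promoter in the table, in 21.2% of 354 lost falls, in 8.86% of 519 lost rises and in 5.71% of 140 kept rises. Median GC content was 65% for all of them, 64.7% for lost falls, 70.3% for lost rises and 72.2% for kept rises, and an AT-only motif is rarer in GC-rich sequence. Of the 16 genes of both directions with the largest interactions, 10 had a promoter that could be used, and none of these held a match. The promoters shown are those of the lost fall and the lost rise with the largest interaction among genes that do, with a call that held in every left-out fit. Capitals mark the matches, and a match is not a binding site. MMP10 (chr11:102780579-102780878, minus strand, 3 matches, 36.3% GC) and LSR (chr19:35248752-35249051, plus strand, 1 match, 64.3% GC) read 5′ to 3′:
MMP10: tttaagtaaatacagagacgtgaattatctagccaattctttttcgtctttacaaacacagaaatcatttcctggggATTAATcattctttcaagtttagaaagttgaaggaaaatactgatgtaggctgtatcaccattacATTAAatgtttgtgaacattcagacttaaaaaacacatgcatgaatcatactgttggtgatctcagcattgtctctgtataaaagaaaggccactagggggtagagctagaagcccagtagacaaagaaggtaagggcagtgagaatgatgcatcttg
LSR: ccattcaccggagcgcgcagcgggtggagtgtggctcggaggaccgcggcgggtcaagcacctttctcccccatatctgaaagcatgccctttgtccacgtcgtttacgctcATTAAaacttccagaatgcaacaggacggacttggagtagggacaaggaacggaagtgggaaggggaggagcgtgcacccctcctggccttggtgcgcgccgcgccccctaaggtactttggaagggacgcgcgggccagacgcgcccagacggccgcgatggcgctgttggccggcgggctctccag

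MMP10, the matrix protease stromelysin-2, had 7278 and 7874 with the PRH virus and 7221 and 10610.1 with the empty virus in N3-labelled cells, and 3269 and 2641 with the PRH virus and 22202 and 24234 with the empty virus in control cells. Its interaction was 2.77 (SE 0.24, adjusted p 0.000458), with the N3-labelled values between the 2 control groups. LSR, a protein of tricellular junctions and a lipoprotein receptor, had 7319 and 5595 with the PRH virus and 10239.7 and 7559 with the empty virus in N3-labelled cells, and 445 and 465 with the PRH virus and 31.8 and 43 with the empty virus in control cells. Its interaction was -4.04 (SE 0.31, adjusted p 0.000348), and all N3-labelled values lay above all control values.

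Among 29 receptors, ligands and machinery genes of the Notch pathway, 11 rose and 2 fell with the PRH virus in control cells, and 1 rose and 1 fell in N3-labelled cells. The interaction was called for 5 of 29 (17.2%), all lower, and for 8.39% of all genes. Leaving out any 1 library gave 1 to 3 called members, so that share rests on single libraries. The Notch ligand JAG2 was the member whose call held in every left-out fit. It had 6292 and 5789 with the PRH virus and 4441 and 5429 with the empty virus in N3-labelled cells and 6021 and 5468 with the PRH virus and 1604 and 1462 with the empty virus in control cells. Control cells with empty virus stood alone, below the other 6 libraries, with an interaction of -1.61 (SE 0.17, adjusted p 0.000862). Of 11 Notch targets, 6 rose in control cells and none was called in N3-labelled cells; 2 had a called interaction, both lower, but neither held in all left-out fits. Their median response was 0.23 in N3-labelled cells and 0.89 in control cells, where the median of all genes was -0.01 and 0.00. Of all genes, 15.2% rose in control cells.

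Among PRH partners and co-repressors, 2 rises were kept, and 1 rise and 1 fall were lost. Another 2 rises and 1 fall in control cells could not be placed. The share of called interactions, 16.7% against 8.39% of all genes, rests on 2 genes. Of 12, 5 rose and 2 fell in control cells, 2 rose in N3-labelled cells, and 1 interaction was called in each direction; 0 or 1 was called in the left-out fits. TLE2, a Groucho-family co-repressor, had 2519.7 and 2716 with the PRH virus and 609 and 752 with the empty virus in N3-labelled cells and 6708 and 7529 with the PRH virus and 1267 and 1387 with the empty virus in control cells. The groups with and without PRH did not overlap in either line, and the interaction was -0.47 (95% interval -0.90 to -0.04). AES, a short relative of the TLE proteins, rose by 0.44 in N3-labelled cells and 0.48 in control cells. TLE4, another Groucho-family member, was a lost fall: it had 4264 and 3914 with the PRH virus and 4666 and 3472 with the empty virus in N3-labelled cells and 14.5 and 6.76 with the PRH virus and 50.2 and 71.3 with the empty virus in control cells (interaction 2.49, called in 3 of 8 left-out fits). TLE1, of the same family, was a lost rise, with responses of -0.31 in N3-labelled cells and 0.64 in control cells (interaction -0.95, called in 1 of 8 left-out fits). The rise of TLE2 in N3-labelled cells lost its call without either PRH virus library there (adjusted p 0.0553 and 0.0618), and that of AES in 7 of 8 left-out fits (0.0562 to 0.277; it held without library B of N3-labelled cells with empty virus).

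Interferon-stimulated genes rose in control cells for 15 of 28 tested, and none fell there. None was called in N3-labelled cells, where 2.21% of all genes were, so a count of 0 among 28 is near that background. The same holds for the other lists in which no gene was called in N3-labelled cells. For every list, the shares of all genes to set beside such counts are 15.2% rising and 11.8% falling in control cells. For a called interaction the share is 8.39%. The interaction was called for 8 (28.6%), all lower, of which 4 held in every left-out fit, and 7 of the 15 rises could not be placed. Median responses were -0.01 in N3-labelled cells and 1.28 in control cells (1.20 with 6 genes that have a group at 0 set to their bounds). OAS3, which makes the second messenger that activates RNase L, had 11809.8 and 11976 with the PRH virus and 16739.7 and 16581 with the empty virus in N3-labelled cells and 145 and 105 with the PRH virus and 8.2 and 21.5 with the empty virus in control cells. It rose in control cells, while in N3-labelled cells the PRH virus libraries lay below the empty virus libraries, a change of -0.49 on the log2 scale that was not called (adjusted p 0.524; interaction -3.60, SE 0.50, adjusted p 0.00315), and every N3-labelled value lay above every control value. DDX58, the RNA sensor RIG-I, had 787 and 959 with the PRH virus and 834 and 1141 with the empty virus in N3-labelled cells and 698 and 1001 with the PRH virus and 220.3 and 249 with the empty virus in control cells. ISG15, a ubiquitin-like modifier, had 1612 and 1798 with the PRH virus and 1762 and 1710.2 with the empty virus in N3-labelled cells and 1725 and 1784 with the PRH virus and 861 and 738 with the empty virus in control cells. For DDX58 and ISG15, control cells with empty virus were the low group and the other 3 groups lay together. IRF1, a transcription factor of the interferon response, had an interaction of -1.53.

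Part of the antigen presentation and inflammatory genes rose in control cells. Of 10 MHC class I genes, 6 rose in control cells and none was called in N3-labelled cells, with 3 interactions called (30%), all lower, of which 1 held in every left-out fit (1 to 4 called). HLA-C, a class I heavy chain, had 1217 and 1319 with the PRH virus and 1507 and 1540.3 with the empty virus in N3-labelled cells and 740.0 and 711 with the PRH virus and 305 and 347 with the empty virus in control cells (interaction -1.42). Of 27 NF-kB and inflammatory genes, 11 rose and 2 fell in control cells and none was called in N3-labelled cells; 5 interactions were called (18.5%), all lower, of which 2 held in every left-out fit (2 to 5 called). The cytokine LIF had 5763 and 3785 with the PRH virus and 6362 and 4293 with the empty virus in N3-labelled cells and 3132 and 6122 with the PRH virus and 264 and 446 with the empty virus in control cells. Its B library was lower than A in both N3-labelled groups and higher in both control groups, and the interaction was -3.83 (SE 0.51, adjusted p 0.0025). TRAF1, an adaptor of TNF receptors, had 366 and 309 with the PRH virus and 351 and 363 with the empty virus in N3-labelled cells and 683 and 1124 with the PRH virus and 44.1 and 88.3 with the empty virus in control cells (interaction -3.87). Of 13 genes of prostaglandin E2 synthesis and signalling, 4 rose and 1 fell in control cells and none was called in N3-labelled cells. For 1 of them the interaction was called (7.69%, against 8.39% of all genes).

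**Figure D4:**
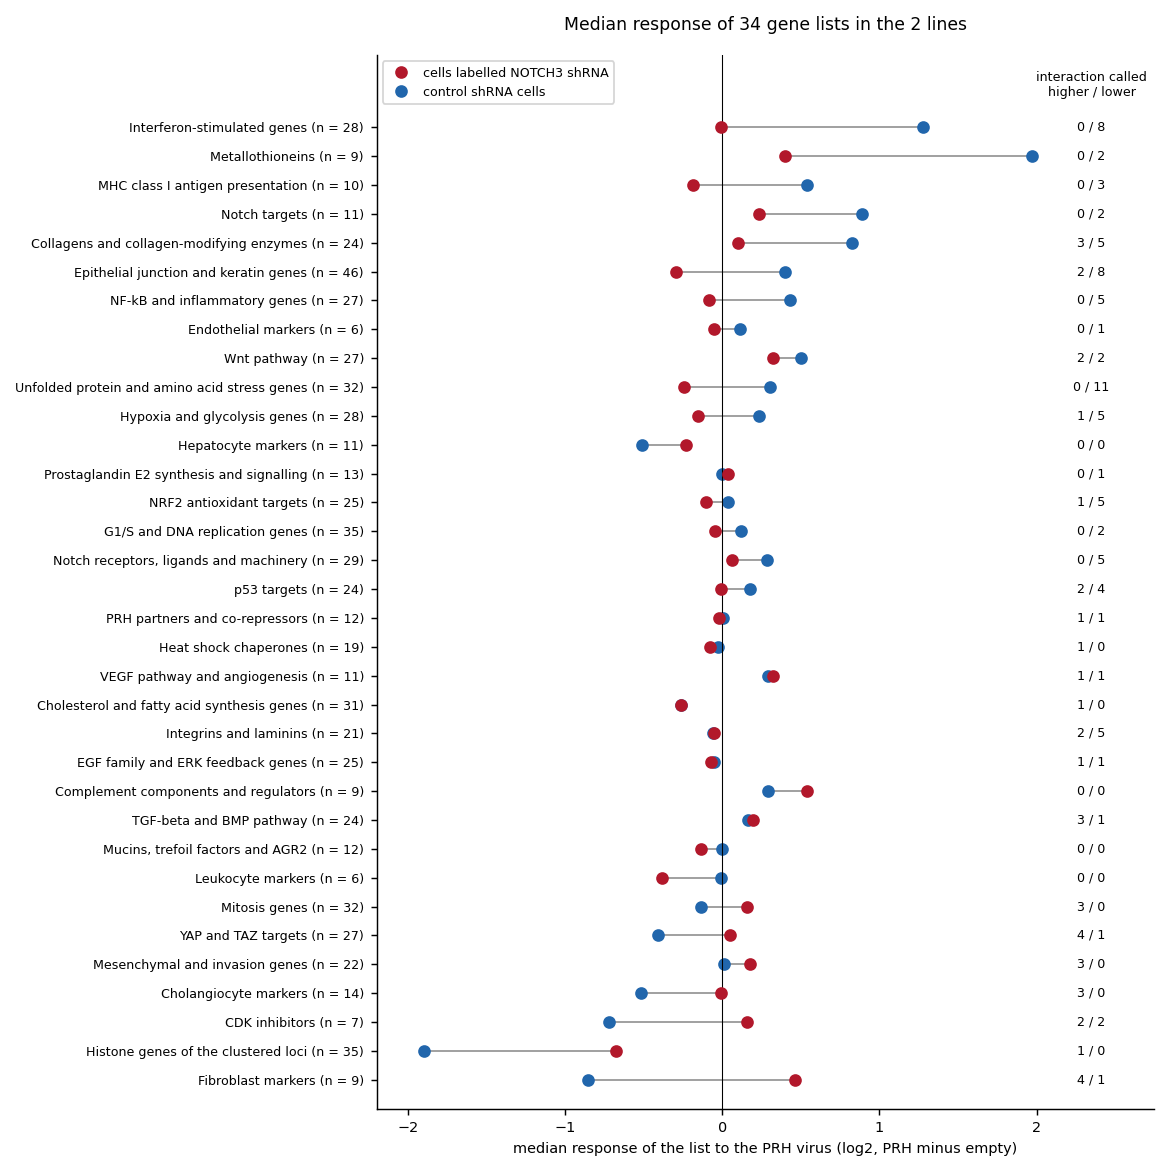
Median log2 response to the PRH virus of 34 gene lists in N3-labelled cells (red) and control cells (blue), ordered by the median interaction, with the number of called interactions at the right. Interferon-stimulated genes have medians of -0.01 and 1.28 and metallothioneins 0.40 and 1.97, while histone genes have -0.67 and -1.90.

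Part of the epithelial junction and keratin genes lost the response, while 6 rises and 5 falls in control cells could not be placed. With the empty virus, the median member of this list was 7.63 higher on the log2 scale in N3-labelled than in control cells. Among all genes, 8.39% had a called interaction and 2.21% were called in N3-labelled cells. Of 46 epithelial junction and keratin genes, 14 rose and 7 fell in control cells, none was called in N3-labelled cells, and 10 interactions were called (21.7%), 2 higher and 8 lower, of which 5 of the lower ones held in every left-out fit (5 to 13 called). JUP, the junction protein plakoglobin, had 22758 and 20353 with the PRH virus and 22701 and 21019.5 with the empty virus in N3-labelled cells and 5536 and 3948 with the PRH virus and 1473 and 1107 with the empty virus in control cells. F11R, the tight junction protein JAM-A, had 5194 and 4544 with the PRH virus and 6299 and 5413 with the empty virus in N3-labelled cells and 1369 and 1229.7 with the PRH virus and 233 and 261 with the empty virus in control cells. In both genes every N3-labelled value lay above every control value (interactions -1.89 and -2.66). SPINT2, a membrane inhibitor of serine proteases, and PKP3, a desmosome protein, had interactions of -1.71 and -1.88. The 2 higher interactions were those of KRT19 and EPCAM, which reached at most 55.4 and 28.3 in control cells. In N3-labelled cells these genes were at 51369.8 or more and 23795 or more. The 22 mesenchymal and invasion genes had 3 called interactions (13.6%), all higher, and 1 to 5 in the left-out fits. Of these, ACTA2, smooth muscle actin, held in all left-out fits, with 25722 and 16063 with the PRH virus and 20315 and 16659.6 with the empty virus in N3-labelled cells and 7516 and 5545 with the PRH virus and 26023 and 18850.5 with the empty virus in control cells (interaction 1.92).

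Of the 21 genes on the integrin and laminin list, which leaves out ITGA5, 5 rose and 4 fell in control cells. None of the 21 was called in N3-labelled cells. The interaction was called for 7 (33.3%), 2 higher and 5 lower, and 6 of them held in every left-out fit. ITGA3, the alpha 3 subunit that binds laminin, had 9914 and 7894 with the PRH virus and 10727 and 8329 with the empty virus in N3-labelled cells and 3836 and 3871 with the PRH virus and 569 and 709 with the empty virus in control cells (interaction -2.69, SE 0.23, adjusted p 0.000412). ITGB4, the partner of alpha 6 in hemidesmosomes, had 16520.1 and 13069.8 with the PRH virus and 23133 and 17027 with the empty virus in N3-labelled cells and 197 and 235 with the PRH virus and 32.8 and 55.4 with the empty virus in control cells. ITGAV, the alpha V subunit, went the other way: it had 9256 and 10207 with the PRH virus and 9039 and 8788 with the empty virus in N3-labelled cells and 3198 and 3224 with the PRH virus and 5292 and 5047 with the empty virus in control cells, an interaction of 0.81. The fibronectin receptor subunit ITGA5 was kept, with a rise of 1.08 in N3-labelled cells and 1.73 in control cells; without either PRH virus library of N3-labelled cells the first was not called (adjusted p 0.0686 and 0.169).

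Collagens and their modifying enzymes were split. Of 24, 11 rose and 4 fell in control cells and 3 rose in N3-labelled cells, with 3 interactions higher and 5 lower (33.3%), and 4 to 6 called in the left-out fits. COL5A2, a fibril-forming collagen chain, had 54062 and 59211 with the PRH virus and 47575 and 67386 with the empty virus in N3-labelled cells and 14137 and 9717 with the PRH virus and 53324 and 45152 with the empty virus in control cells. COL1A2, a chain of type I collagen, had 11416 and 11763 with the PRH virus and 10610.4 and 12776 with the empty virus in N3-labelled cells and 34350.5 and 26250.0 with the PRH virus and 74192 and 66693 with the empty virus in control cells. Both fell in control cells alone, with interactions of 2.06 and 1.22. P4HA2, a collagen prolyl hydroxylase subunit, rose there alone (1995 and 2125 against 760.5 and 696 with PRH against empty virus) and had 3488 and 3577 against 3721 and 3949 in N3-labelled cells, an interaction of -1.62. COL6A2, a chain of type VI collagen, was kept, with responses of 1.21 in N3-labelled cells and 1.63 in control cells; the first was not called without either PRH virus library of N3-labelled cells (adjusted p 0.0686 and 0.169).

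Growth factor pathways had shares of called interactions from 8% to 18.2%, and their left-out fits called 1 to 3 EGF family, 1 to 6 TGF-beta and BMP, 2 to 4 Wnt and 0 to 3 VEGF pathway genes. For 25 EGF family and ERK feedback genes it was 2, 1 in each direction. ERBB3, a receptor of neuregulins, had 2821 and 2526 with the PRH virus and 3421 and 3754 with the empty virus in N3-labelled cells and 439 and 650.1 with the PRH virus and 132 and 111 with the empty virus in control cells (interaction -2.56). For 24 TGF-beta and BMP genes 3 were higher and 1 lower. The ligand TGFB2 had 12010.0 and 10918 with the PRH virus and 8910.0 and 9910.0 with the empty virus in N3-labelled cells and 12761 and 11148 with the PRH virus and 22410.1 and 21198 with the empty virus in control cells, with N3-labelled values near those of control cells with PRH virus (interaction 1.15). TGFB1, another ligand of that family, was kept: it rose by 0.80 in N3-labelled cells and 0.67 in control cells, and the first was not called without either PRH virus library of N3-labelled cells (adjusted p 0.068 and 0.118). For 27 Wnt pathway genes 2 were higher and 2 lower. The Wnt inhibitor DKK1 had 9629 and 10902 with the PRH virus and 5187 and 6735 with the empty virus in N3-labelled cells and 14728 and 10068 with the PRH virus and 25829 and 23147 with the empty virus in control cells, directions that were opposite, with the fall in control cells called and the rise in N3-labelled cells not (adjusted p 0.0605). For 11 VEGF pathway and angiogenesis genes 1 was higher and 1 lower.

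The 27 YAP and TAZ targets mostly fell or were not called in control cells (2 rose, 9 fell), and 2 rose in N3-labelled cells. Their interactions were 4 higher and 1 lower (18.5%). NT5E, the ectonucleotidase CD73, had 10607 and 11575 with the PRH virus and 13726 and 13562 with the empty virus in N3-labelled cells and 12834 and 12465 with the PRH virus and 42181 and 39469.5 with the empty virus in control cells. Control cells with empty virus stood alone above the others (interaction 1.39, SE 0.12, adjusted p 0.000412). DLC1 and the kinase NUAK2 had interactions of 0.99 and -1.70.

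The G1/S and mitosis lists had shares of called interactions near the 8.39% of all genes. Of 35 G1/S and DNA replication genes, 8 rose and 1 fell in control cells and none was called in N3-labelled cells. The interaction was called for 2 of them (5.71%). Of 32 mitosis genes, 4 fell in control cells and 3 interactions were called (9.38%), all higher. None of those 5 calls held in every left-out fit. Among 7 CDK inhibitors 3 rose and 4 fell in control cells and none was called in N3-labelled cells; 2 interactions were higher and 2 lower (57.1% of 7), and 1 to 4 were called in the left-out fits. CDKN2B, which inhibits CDK4 and CDK6, had 2109.6 and 2424 with the PRH virus and 2694 and 3509 with the empty virus in N3-labelled cells and 1735 and 1885 with the PRH virus and 6921 and 7149 with the empty virus in control cells. All N3-labelled values lay between the 2 control groups (interaction 1.52, SE 0.19, adjusted p 0.00222).

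Histone genes of the clustered loci fell in control cells for 17 of 35, and in N3-labelled cells for 2. Among all genes, 11.8% fell in control cells and 0.309% in N3-labelled cells, and 8.39% had a called interaction. The median of the histone genes was -0.67 in N3-labelled cells and -1.90 in control cells, but 1 interaction was called (2.86%) and 14 falls could not be placed. Of these genes HIST1H3B and HIST1H1C fell in both lines. HIST1H3B, a replication-dependent H3 gene, had 13.1 and 7.03 with the PRH virus and 142 and 117 with the empty virus in N3-labelled cells and 17 and 24.1 with the PRH virus and 300.3 and 207 with the empty virus in control cells, and its fall in N3-labelled cells was not called without library A or B with PRH virus or library A with empty virus (adjusted p 0.0686 to 0.169). The fall of HIST1H1C, a linker histone gene, in N3-labelled cells was not called in 6 of 8 left-out fits (adjusted p 0.0859 to 0.198). Most transcripts of such genes lack a poly(A) tail, and how much of them the library kit retained was not tested. Of 24 p53 targets, 8 rose and 2 fell in control cells and none was called in N3-labelled cells, with 2 interactions higher and 4 lower (25%), and 3 to 6 called in the left-out fits. GDF15, a stress-induced cytokine of the TGF-beta family, had 10177 and 5857 with the PRH virus and 11586 and 7097 with the empty virus in N3-labelled cells and 1802 and 3342 with the PRH virus and 198 and 328 with the empty virus in control cells (interaction -3.49). TNFRSF10B, a death receptor for TRAIL, and SESN2, a stress-induced regulator of mTORC1, had interactions of -1.16 and -1.52.

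Genes of the response to unfolded proteins and amino acid shortage had the largest number of called interactions, 11 of 32 (34.4%), all lower. In control cells 12 rose and 1 fell; in N3-labelled cells none rose and 2 fell. Median responses were -0.25 in N3-labelled cells and 0.30 in control cells. HYOU1, a chaperone of the endoplasmic reticulum, had 30685 and 27966 with the PRH virus and 38254 and 38324 with the empty virus in N3-labelled cells and 17163 and 16996 with the PRH virus and 10939 and 11552 with the empty virus in control cells. Here the directions were opposite (interaction -0.99, SE 0.12, adjusted p 0.00135). CHAC1, a glutathione-degrading enzyme induced by ATF4, had 1677 and 2015 with the PRH virus and 2408 and 2367 with the empty virus in N3-labelled cells and 4982 and 5999 with the PRH virus and 2715 and 3112 with the empty virus in control cells (interaction -1.29). HYOU1 and CHAC1 were the members of the 11 that held in all left-out fits; 3 to 9 members were called in those fits, so the number rests partly on single libraries. Of 19 heat shock chaperones 1 interaction was called, DNAJB4, an HSP40 co-chaperone with 6934 and 6027 with the PRH virus and 6628 and 7299 with the empty virus in N3-labelled cells and 2747 and 2017 with the PRH virus and 11226 and 9316 with the empty virus in control cells (interaction 2.01).

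Metallothioneins, small metal-binding proteins, rose in control cells for 8 of 9 and in N3-labelled cells for 2. The interaction was called for 2 (22.2%), both lower, and 4 rises in control cells could not be placed. Among all genes, 15.2% rose in control cells, 1.9% rose in N3-labelled cells and 8.39% had a called interaction. MT1X had 1850.2 and 1839 with the PRH virus and 1459.6 and 1343 with the empty virus in N3-labelled cells and 4604 and 5367 with the PRH virus and 1899 and 1874 with the empty virus in control cells, so that the N3-labelled change was smaller than in control cells (interaction -1.0, SE 0.16, adjusted p 0.00611). MT1E had 5226 and 3339.8 with the PRH virus and 6736 and 3955 with the empty virus in N3-labelled cells and 2102 and 2421 with the PRH virus and 613 and 518 with the empty virus in control cells. MT1A was kept, with 798 and 544 with the PRH virus and 175 and 138 with the empty virus in N3-labelled cells and 3081 and 3696 with the PRH virus and 883 and 835 with the empty virus in control cells, responses of 2.08 and 1.97; the first was not called without either PRH virus library of N3-labelled cells (adjusted p 0.0673 and 0.0686). MT1F was kept too, with responses of 2.06 in N3-labelled cells and 2.94 in control cells. The first ran from 1.70 to 2.42 in the left-out fits and was not called in all of them. Reads of these near-identical genes could be shared between copies, so which member moved is uncertain.

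Metabolic lists varied. Of 28 hypoxia and glycolysis genes, 8 rose and 1 fell in control cells and none was called in N3-labelled cells, with 1 interaction higher and 5 lower (21.4%), and 3 to 6 called in the left-out fits. SLC2A1, the glucose transporter GLUT1, had 28041 and 22666 with the PRH virus and 25711 and 25266 with the empty virus in N3-labelled cells and 2102 and 2012 with the PRH virus and 767 and 881 with the empty virus in control cells (interaction -1.34). SLC16A3, a lactate exporter, had 2264 and 2513 with the PRH virus and 2376 and 3255 with the empty virus in N3-labelled cells and 2157 and 2352 with the PRH virus and 741 and 544 with the empty virus in control cells (interaction -2.05). Of 25 NRF2 antioxidant targets, 1 interaction was higher and 5 were lower (24%), with 1 to 6 called in the left-out fits, and OSGIN1, a stress-induced growth inhibitor, held in all left-out fits at -2.51. Cholesterol and fatty acid synthesis genes fell in control cells for 9 of 31 and rose for 1, with equal medians of -0.26 in both lines and 1 called interaction (3.23%). Complement components (9 genes) and mucins, trefoil factors and AGR2 (12 genes) had no called interaction in limma's fit. In fits that left out 1 library, 0 to 2 complement genes and no mucin list gene were called.

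The marker lists of other cell types had few members with enough reads. Of 14 cholangiocyte markers tested 3 had a called interaction, all higher, none of which held in every left-out fit (0 to 3 called). The 3 were SOX9 and, at low counts in control cells (at most 55.4 and 28.3), KRT19 and EPCAM. Of 9 fibroblast markers 4 were higher and 1 lower. FAP, a protease of activated fibroblasts, had 562 and 634 with the PRH virus and 402 and 332 with the empty virus in N3-labelled cells and 692 and 477 with the PRH virus and 1981 and 1611 with the empty virus in control cells (interaction 2.34), and it was one of 3 fibroblast markers that held in all left-out fits. Of 6 endothelial markers 1 interaction was called, lower, and of 11 hepatocyte and 6 leukocyte markers none was. The part of such markers in the results above was not tested.

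Genes with a kept response include HHEX, but the virus carries it, so its rise in both lines was set by the treatment. No other gene was called in both lines in every left-out fit. The others here were picked after their values were seen, as the kept genes with an interaction within 2-fold whose control response held in every fit and whose mean response was largest. Those that rose were TLE2, MT1A, SRRM3, USP2, GPR124, SOX18, RCOR2 and MMP17. MMP17, a membrane-anchored matrix metalloproteinase, had 419 and 499 with the PRH virus and 139 and 148 with the empty virus in N3-labelled cells and 2234 and 2336 with the PRH virus and 736 and 781 with the empty virus in control cells. RCOR2, a co-repressor of the REST complex, had 575 and 698 with the PRH virus and 185 and 236 with the empty virus in N3-labelled cells and 1625 and 1595 with the PRH virus and 460.2 and 429 with the empty virus in control cells. The transcription factor SOX18 had 1133 and 921 with the PRH virus and 276 and 391 with the empty virus in N3-labelled cells and 3046 and 2447 with the PRH virus and 856 and 680.1 with the empty virus in control cells. In these 3 genes PRH virus libraries lay above empty virus libraries in each line, and N3-labelled cells started from a lower level. Their interactions were 0.07, -0.26 and -0.20. The N3-labelled response of MMP17 and RCOR2 was not called without either PRH virus library there (adjusted p 0.068 and 0.118 for MMP17, 0.0686 and 0.169 for RCOR2). That of SOX18 was also not called without empty virus library A (0.057 to 0.169).

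Kept falls were fewer and smaller. PRKAA2, the alpha 2 catalytic subunit of AMP-activated kinase, had 1324 and 1544 with the PRH virus and 2256 and 2850.3 with the empty virus in N3-labelled cells and 1479 and 1612 with the PRH virus and 4051 and 3979.7 with the empty virus in control cells. WEE1, the kinase that restrains entry into mitosis, had 6547 and 7215 with the PRH virus and 9265 and 9610.2 with the empty virus in N3-labelled cells and 3513 and 3348 with the PRH virus and 5223 and 5424 with the empty virus in control cells. Responses of PRKAA2 were -0.83 in N3-labelled cells and -1.38 in control cells, and those of WEE1 -0.46 and -0.63 in the same order. In N3-labelled cells PRKAA2 was called in 1 of 8 left-out fits, the one without empty virus library A there, and WEE1 in none (adjusted p 0.0524 to 0.189 where not called).

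Reversed genes are 14, of which 10 met the naming rule, 5 in each direction. Their interaction held in all 8 left-out fits. TUBA4A, an alpha-tubulin, had 8785 and 7081 with the PRH virus and 15886 and 11960.0 with the empty virus in N3-labelled cells and 1278 and 1172 with the PRH virus and 269.5 and 304 with the empty virus in control cells (interaction -2.90, SE 0.23, adjusted p 0.000356). SLC1A4, a neutral amino acid transporter, had 5839.6 and 6209.6 with the PRH virus and 8776 and 9018 with the empty virus in N3-labelled cells and 7539.6 and 7920.2 with the PRH virus and 3545 and 4483 with the empty virus in control cells. Each line's groups were apart and in opposite order. ADAM15, a membrane metalloproteinase, EPB41L2, a membrane skeleton protein of the band 4.1 family, and HYOU1 followed the same pattern, with interactions of -1.28, -1.02 and -0.99.

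The other 5 fell in control cells and rose in N3-labelled cells. CAV1, the main protein of caveolae, had 26559.9 and 24633 with the PRH virus and 16544 and 18513 with the empty virus in N3-labelled cells and 58904 and 51909 with the PRH virus and 86956 and 75801 with the empty virus in control cells. ANTXR1, a receptor that binds collagen and anthrax toxin, had 9681 and 9221 with the PRH virus and 6516 and 6992 with the empty virus in N3-labelled cells and 15185 and 13913 with the PRH virus and 24667 and 24976 with the empty virus in control cells. For both, every N3-labelled value lay below every control value. BASP1, a membrane-bound signalling protein, SALL1, a zinc finger transcription factor, and IGF2BP1, an RNA-binding protein, had interactions of 1.35, 1.27 and 0.84. For all 10 genes the response in N3-labelled cells was small, -0.81 to 0.82 on the log2 scale, and it lost its call without either PRH virus library there. It lost its call in all 8 left-out fits for ADAM15, HYOU1 and CAV1, in 7 for TUBA4A, BASP1 and IGF2BP1, in 6 for SLC1A4 and in 5 for ANTXR1 (adjusted p up to 0.371). In control cells the falls of SALL1 and IGF2BP1 were called in 4 of 8 left-out fits and the rise of EPB41L2 in 5. The interactions of the 10 genes thus held where their opposite directions did not.

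The single gained response whose interaction held in all left-out fits was HOXB2, a homeobox gene of the HOXB cluster. It had 4612 and 3959 with the PRH virus and 1826 and 2186 with the empty virus in N3-labelled cells and 8217 and 6870.2 with the PRH virus and 8500.4 and 7824 with the empty virus in control cells. Control groups overlapped, while in N3-labelled cells the PRH virus libraries lay above the others and below the control level (interaction 1.21, SE 0.18, adjusted p 0.0047). Its response in N3-labelled cells was 1.10 and lost its call without either PRH virus library there (adjusted p 0.0708 and 0.118).

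The same virus was used in CCLP1 cells with no shRNA, in 4 libraries that share none with the crossed experiment. That table called 2073 of 13263 genes (15.6%). Of the 694 lost rises tested there, 666 (96%) were higher with the PRH virus and 376 (54.2%) were called higher, where 9.9% of all its genes were. Of 488 lost falls, 478 (98%) were lower and 303 (62.1%) called lower, where 5.73% of all genes were. Kept rises were higher for 202 of 203 (99.5%) and called for 167 (82.3%), and kept falls were called for 7 of 19 (36.8%). The genes called in control cells alone that could not be placed matched in direction for 93.9% of rises and 93.1% of falls. Of these, 39.2% of rises and 17.6% of falls were called, so a matching direction is not particular to lost genes. Median responses in those cells were 0.65 for lost rises, -0.62 for lost falls and 1.11 for kept rises. NOTCH3 rose by 1.58 there (adjusted p 0.00281), JAG2 by 1.15 (adjusted p 0.00338) and TLE2 by 2.14 (adjusted p 0.00121). Of the interferon-stimulated genes named above, DDX58 rose by 1.93 (adjusted p 0.00711) and IRF1 by 0.67 (adjusted p 0.0385), while OAS3, with 0.75 (adjusted p 0.315), and ISG15, with 0.55 (adjusted p 0.171), were not called. Of the 21 gained genes 20 were in that table, 10 moved the same way as in N3-labelled cells and 1 was called. These cells also resembled the control cells in KRT19, at 11.7 to 36.6 in the 4 libraries, on a scale normalised separately.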

How the data were processed

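CCLP1 RNA with poly(A) tails was sequenced from TruSeq libraries, per the labels' protocols. The submitters' processing notes name Trim Galore, TopHat, hg19, featureCounts and DESeq2; their versions, settings and strand handling were not stated there or in the labels. Each deposited signal value equals a whole read count over that library's size factor: in every library 100% of values were whole multiples of one step (tolerance 1e-06). Size factors were 0.853 to 1.17. Columns name the group but no replicate number. Of 23368 lines, 28 held a date in place of a symbol and were left out (0.229% to 0.262% of reads). Of 15836 symbols tested, 13591 were found in the gene name table. Libraries of a group were not duplicates: their reads differed beyond counting noise by a chi-square of 22.7 to 59.4 for each degree of freedom.

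Values were taken to log2(value + 1), and limma 3.58.1 under R 4.3.3 fitted all 8 libraries in 1 model with an intensity trend. A gene was tested if 2 or more libraries reached 10 normalised counts, and called at a Benjamini-Hochberg adjusted p under 0.05 over all 15836 genes. The pseudocount of 1 understates changes of low genes. Exact tests on 2 libraries a group cannot pass the threshold, and p-values measure only the spread between infections of a line. The code was first tested on simulated data. Alternatives were other pseudocounts, filters and scalings, no trend, edgeR 4.0.16 and DESeq2 1.42.0 on recovered whole reads, and leaving out each library. The parental table (20795552 to 28037741 reads in genes, 4 libraries) was scaled and fitted separately; its control virus is called empty, as in the labels, though its columns are named after a GFP virus. The PRH knockdown table was not used.

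The gene lists, classes and naming rule were chosen with earlier results of these data known. Named are HHEX, NOTCH3, the 8 genes per direction with the largest interaction, up to 5 per direction of each class, and list members by interaction p. Genes named outside the lists had a group mean of 50 or more. Except for HHEX, NOTCH3 and the kept genes, they also had an interaction call that held without each library. Kept genes other than HHEX, and MMP10 and LSR, were picked after their values were seen. A group at 0 has a bound from 3 reads over its 2 libraries, which covers counting error only. Without stated strand, overlapping antisense genes cannot be told apart.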

Additional observations from a re-analysis of the deposited data

Results flagged for a closer look

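The response to the PRH virus differed between N3-labelled and control cells by the test of the difference itself, limma's interaction with Benjamini-Hochberg adjustment, for 1329 genes. Each value here is that interaction on the log2 scale, N3-labelled minus control. Among genes with a group mean of 50 or more and a call that held without each library, the highest values were those of SHROOM2 at 4.84, PCDH9 at 4.45, FILIP1L at 3.40, FILIP1 at 3.36, PKHD1L1 at 3.33, TFPI at 3.20, ITGB8 at 2.96 and FZD8 at 2.88. The lowest were those of FUT1 at -6.44, BCAM at -6.04, GALNT6 at -5.80, LAMA1 at -5.60, P2RY2 at -5.40, SP140L at -5.23, ARHGEF16 at -4.86 and INPP5J at -4.59. The fitted values of SHROOM2, FUT1, LAMA1 and P2RY2 depend on the pseudocount, because a control group is at 0 in both libraries.

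The response was reversed, called in both lines in opposite directions, for 14 genes, of which 10 are named. Those that fell in N3-labelled cells and rose in control cells were TUBA4A at -2.90, SLC1A4 at -1.52, ADAM15 at -1.28, EPB41L2 at -1.02 and HYOU1 at -0.99. Those that rose in N3-labelled cells and fell in control cells were BASP1 at 1.35, SALL1 at 1.27, ANTXR1 at 1.26, CAV1 at 1.10 and IGF2BP1 at 0.84. The gained gene HOXB2 had 1.21 and NOTCH3 -1.47. The 2 lines differed at least 2-fold in 36.8% of genes with the empty virus, and the part of that difference in these values was not tested.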

How the results depend on the processing

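No paired analysis was possible because the columns of the crossed experiment carry no replicate numbers. All 1270 interaction calls shared with edgeR, 1318 shared with DESeq2 and 310 shared with the fit without an intensity trend had the same sign as in limma's fit. Counts over both directions stayed within 1.5 times under both other pseudocounts, both other filters, both other scalings and edgeR; of single directions, the 49 falls in N3-labelled cells became 23 with equal totals. Without the intensity trend the counts were 351 interactions, 82 responses in N3-labelled cells, 2730 in control cells, 341 genes with a lost, reduced or reversed response, 60 kept and 8 gained or stronger. In that fit 73 interactions of named genes lost their call and 45 kept it, and 33 of their responses in N3-labelled cells lost it and 11 kept it. DESeq2 called 2212 interactions, 1097 responses in N3-labelled cells and 4823 in control cells, with 1976 lost, reduced or reversed, 528 kept and 113 gained or stronger. The cause of these shifts was not tested. Leaving out 1 library gave 500 to 1187 interactions, 1 to 405 responses in N3-labelled cells, 2291 to 4443 in control cells, 497 to 1060 lost, reduced or reversed, 1 to 252 kept and 0 to 59 gained or stronger. The group with the left-out library then has a single one, assumed to vary like the others. The response of NOTCH3 in N3-labelled cells, which was not called, ran from -0.16 to 0.47 in those fits and changed sign without N3-labelled PRH virus library B (-0.10) or empty virus library A (-0.16). Rescaling moved the median response by at most 0.0986 (control cells, equal totals). Of the 225 kept genes, 1 (HHEX) had both responses called in all 8 of those fits.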
